A study of Mus musculus with 8 samples.

Results

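The enzymes and regulators of de novo lipogenesis in liver, 10 genes in all, were read across 8 mouse liver RNA libraries. They were taken by symbol from the deposited expression table, as 10 of its 55487 genes. The set held 8 enzymes (Acly, Acaca, Acacb, Fasn, Elovl6, Scd1, Scd2 and Me1) and 2 transcription factors (Srebf1 and Mlxipl). The libraries came from liver of male wild-type C57BL/6N mice in 4 groups. Western diet with CCl4 (western diet + CCl4) was 1 library and western diet with oil (western diet + oil) 2 libraries, while normal diet with CCl4 (normal diet + CCl4) was 2 and normal diet with oil (normal diet + oil) 3. Western diet here was a high-fat diet given together with drinking water that held fructose at 23.1 g/L and glucose at 18.9 g/L, while normal diet was standard chow with tap water. CCl4 (carbon tetrachloride, a toxin that liver cells turn into a reactive radical) or its vehicle, corn oil, went into the peritoneum once a week, so every mouse of the study was injected. The dose of CCl4, the length of feeding, the age of the mice and the hour of collection are not stated in the sources used here. The labels do not say whether each library is from an animal of its own. The p-values therefore weigh an effect only against how much these libraries vary, and that variation may be technical. The western diet + CCl4 group rests on a single library and has no spread of its own.

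De novo lipogenesis turns sugar carbon into fat. Citrate leaves the mitochondria, ATP citrate lyase (Acly) cuts it to acetyl-CoA, the acetyl-CoA carboxylases (Acaca and Acacb) make malonyl-CoA, fatty acid synthase (Fasn) builds palmitate with NADPH that malic enzyme (Me1) helps to supply, Elovl6 lengthens the chain, and the stearoyl-CoA desaturases (Scd1 and Scd2) put in the first double bond. In liver the genes of this route are switched on by SREBP-1c, a product of Srebf1 that insulin and the oxysterol receptor LXR induce, and by ChREBP, the product of Mlxipl, which responds to sugar phosphates.

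On the GRCm38 build the members lie on 5 chromosomes. Acly, Acaca, Fasn and Srebf1 are on chromosome 11, Acacb and Mlxipl on chromosome 5, Scd1 and Scd2 on chromosome 19, Elovl6 on chromosome 3 and Me1 on chromosome 9, and all 10 are annotated as protein coding. RefSeq promoter windows on GRCm38.p6 were matched for 8 members (12 windows; none was held for Scd1 or Scd2). The 2 windows below are shown because Srebf1 was the member nearest to Fasn in its profile over the libraries and because each carries letters known from the control of this pathway. Each is the 250 bases before an annotated start on the minus strand, written 5′ to 3′. In the Fasn window (chr11:120824548-120824797) the capitals mark CCAAT on either strand, the core letters that the factor NF-Y reads beside SREBP sites. In the Srebf1 window (chr11:60210472-60210721), which lies before a start inside the annotated gene, they mark the letters GGTTACTNG on the reverse strand, which begin the LXR-responsive elements known from this promoter in mouse, and CCAAT.
Fasn: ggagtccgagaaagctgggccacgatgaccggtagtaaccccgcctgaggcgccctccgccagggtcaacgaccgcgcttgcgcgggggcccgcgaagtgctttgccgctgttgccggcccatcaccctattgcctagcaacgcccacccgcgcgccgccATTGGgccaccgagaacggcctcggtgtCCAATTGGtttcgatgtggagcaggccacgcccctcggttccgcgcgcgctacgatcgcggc
Srebf1: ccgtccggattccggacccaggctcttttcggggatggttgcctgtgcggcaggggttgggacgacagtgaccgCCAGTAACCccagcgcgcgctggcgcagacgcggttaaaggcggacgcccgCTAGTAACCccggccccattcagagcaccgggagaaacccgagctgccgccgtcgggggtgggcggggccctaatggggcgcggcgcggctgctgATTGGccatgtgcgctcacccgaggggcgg
Fasn held 3 CCAAT matches, which began 90, 62 and 59 bases before the start, the last pair overlapping each other. Srebf1 held the LXR-type letters at 176 and 125 bases before the start and 1 CCAAT at 30 bases. Of all 32851 windows of this length, searched on both strands, 33.8% held CCAAT and 0.514% (169 windows) held GGTTACTNG. Among members, CCAAT was found in 6 of the 12 windows, which belonged to 5 of the 8 genes (Acacb, Fasn, Me1, Srebf1 and Mlxipl). The sterol element letters TCACNCCAC were in 1 of the 12 member windows, a window of Mlxipl, and in 1.05% of all windows. The E-box letters CACGTG, of which ChREBP sites are built, were in 1 other window of Mlxipl and in 6.02% of all windows. These matches describe letters in short windows and are not evidence of binding.

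Levels are FPKM, fragments scaled to transcript length and to the fragments mapped in a library. Counts were not analysed here, so depth is unknown and no counting error can be given. FPKM sums per library lay between 514832 and 612747. The Mup family of major urinary proteins took 8.22% of that sum in the western diet + CCl4 library and 9.16% and 10% in the pair of western diet + oil. Its share was 2.8% and 4.65% in the normal diet + CCl4 libraries, against 16.9%, 22.1% and 32.5% in those of normal diet + oil. FPKM is a share, and the median log2 fold change over all 11514 tested genes was itself 0.22 for western diet + oil, 0.26 for normal diet + CCl4 and 0.19 for western diet + CCl4, each against normal diet + oil. Hepatocyte markers were abundant in every library, 8 of them summing to between 32339 and 57302 FPKM. In bulk RNA, fewer cells of a type and less RNA per cell cannot be told apart.

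A pair of libraries stood apart for these genes. Normal diet + oil library 3 had the lowest value of all 8 libraries in 4 members, and normal diet + CCl4 library 1 had the lowest in another 4. In library 3 of normal diet + oil the clock gene Arntl was 4.31 FPKM, against 0 in the other libraries of its group and at most 1.20 elsewhere. Rgs16, a G-protein regulator with a daily rhythm in liver, was 1.42 FPKM in that library and 70.3 and 25.7 FPKM in its group mates. Arntl and Rgs16 were picked out after their values were seen, and the part of sampling time in the members' values was not tested.

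Scd1, the main liver desaturase, was the most abundant member in each group. It stood at 1937 FPKM in western diet + CCl4, at 3487 and 2243 in western diet + oil, at 508 and 1145 in normal diet + CCl4, and at 1167, 1463 and 424 in normal diet + oil. Both western diet + oil libraries and the western diet + CCl4 library were above all 5 normal diet libraries. Scd2, the isoform known chiefly from brain and from the newborn mouse, was the least abundant member. Its values were 4.49 FPKM in western diet + CCl4, 2.86 and 1.88 in western diet + oil, 2.69 and 1.20 in normal diet + CCl4, and 0.424, 0.914 and 0.675 in normal diet + oil. Normal diet + oil libraries were the 3 lowest of the 8, and the combined treatment the highest. Scd1 to Scd4 sit side by side on chromosome 19, and the coding sequences of Scd1 and Scd2 shared 90.3% of 1065 aligned bases with a longest identical run of 147 bases. The sources used here do not state how fragments that match both were assigned, so Scd2 is uncertain at levels this far below Scd1. Scd3 reached at most 1.87 FPKM and Scd4 was listed at 0 in every library.

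**Figure D1:**
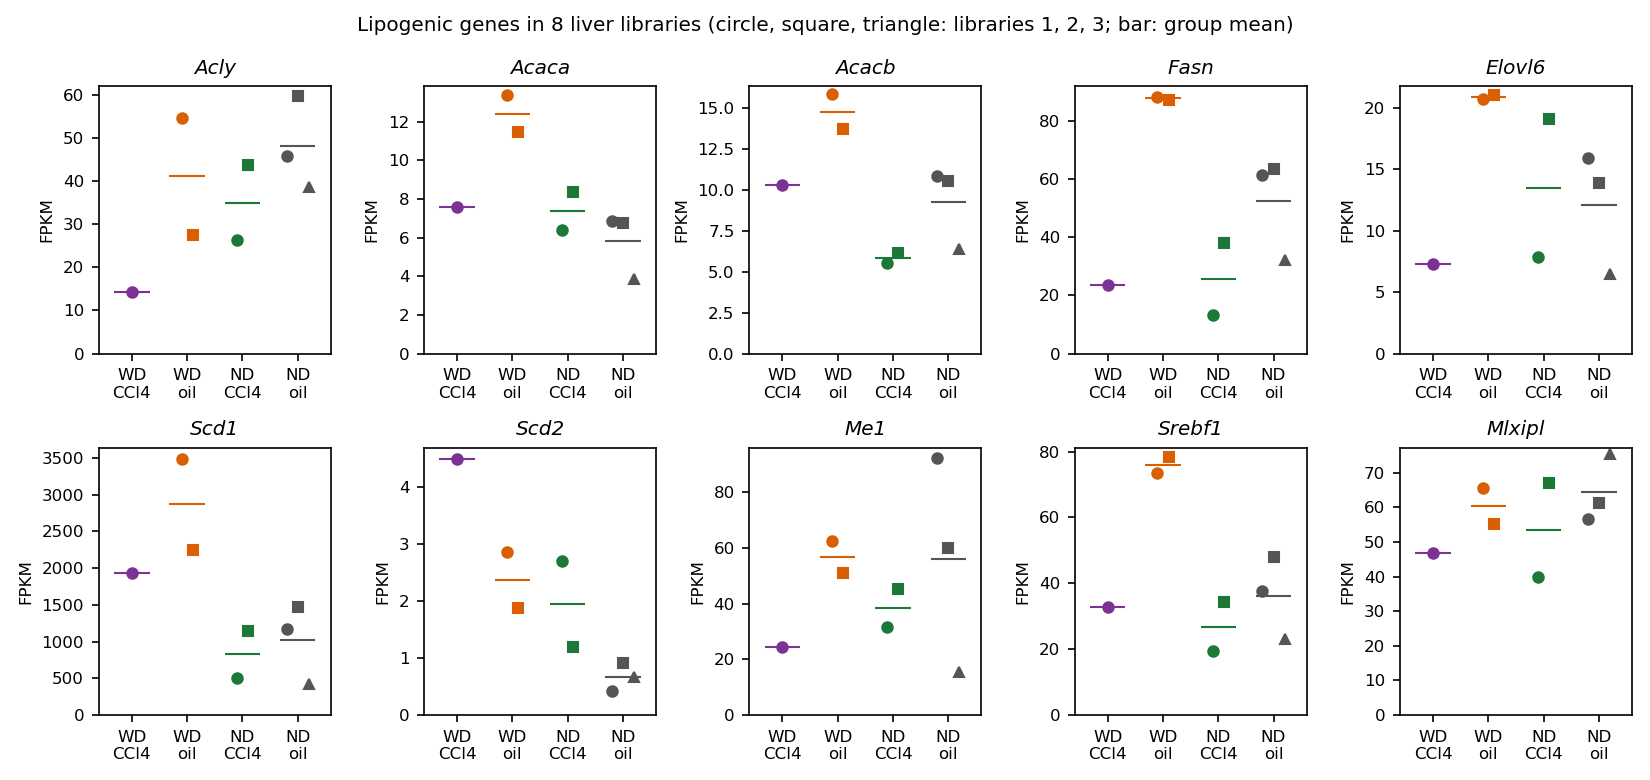
FPKM of the 10 members (1 panel each, linear axis from 0) in the libraries of western diet + CCl4, western diet + oil, normal diet + CCl4 and normal diet + oil; symbols are single libraries and bars are group means. Both western diet + oil libraries lie above every normal diet + oil library for 7 members (Acaca, Acacb, Fasn, Elovl6, Scd1, Scd2 and Srebf1). The same holds for 40.7% of all tested genes. Scd2 alone is highest in the western diet + CCl4 library.

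Srebf1 was 32.9 FPKM in western diet + CCl4, 73.4 and 78.3 in western diet + oil, 19.3 and 34.3 in normal diet + CCl4, and 37.8, 47.9 and 23.1 in normal diet + oil. Western diet + oil stood clear of all other libraries, and the combined treatment lay within the range of the normal diet libraries. Mlxipl varied least of the members, the highest library being 1.90 times the lowest. It was 46.9 FPKM in western diet + CCl4, 65.6 and 55.3 in western diet + oil, 39.7 and 67.0 in normal diet + CCl4, and 56.7, 61.3 and 75.5 in normal diet + oil. The 3 replicated groups overlapped for Mlxipl, and the single western diet + CCl4 value was below both oil groups.

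Acly, at the entry of the route, was 14.4 FPKM in western diet + CCl4, 54.7 and 27.5 in western diet + oil, 26.2 and 43.7 in normal diet + CCl4, and 45.9, 59.8 and 38.7 in normal diet + oil. The combined treatment gave the lowest of the 8 values, and the other groups overlapped. Me1 was 24.6 FPKM in western diet + CCl4, 62.5 and 50.9 in western diet + oil, 31.6 and 45.3 in normal diet + CCl4, and 92.3, 60.0 and 15.4 in normal diet + oil. Normal diet + oil alone held both the highest and the lowest Me1 value, a 5.98-fold range.

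Acaca, which makes the malonyl-CoA that fatty acid synthase uses, was 7.61 FPKM in western diet + CCl4, 13.4 and 11.5 in western diet + oil, 6.39 and 8.37 in normal diet + CCl4, and 6.84, 6.74 and 3.85 in normal diet + oil. Acacb, the mitochondrial carboxylase whose malonyl-CoA restrains fatty acid oxidation, was 10.3 FPKM in western diet + CCl4, 15.8 and 13.7 in western diet + oil, 5.52 and 6.16 in normal diet + CCl4, and 10.9, 10.6 and 6.40 in normal diet + oil. For both carboxylases western diet + oil was above every other library. Both normal diet + CCl4 libraries were the lowest of the 8 for Acacb but not for Acaca, where normal diet + oil library 3 was lowest.

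Fasn was 23.7 FPKM in western diet + CCl4, 88.3 and 87.4 in western diet + oil, 13.3 and 38.1 in normal diet + CCl4, and 61.5, 63.6 and 32.1 in normal diet + oil. Elovl6 was 7.28 FPKM in western diet + CCl4, 20.7 and 21.1 in western diet + oil, 7.89 and 19.1 in normal diet + CCl4, and 16.0, 13.8 and 6.47 in normal diet + oil. Both western diet + oil libraries were the highest for both genes and nearly equal to each other, while each other replicated group spread widely. Fasn in the western diet + CCl4 library was below all 5 oil libraries.

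In western diet + oil the order of mean levels after Scd1 was Fasn, Srebf1, Mlxipl, Me1, Acly, Elovl6, Acacb, Acaca and Scd2. The libraries of Mlxipl overlapped those of Me1, and those of Me1 overlapped those of Acly, so that these neighbours were not separated. In normal diet + oil the order was Scd1, Mlxipl, Me1, Fasn, Acly, Srebf1, Elovl6, Acacb, Acaca and Scd2, and each gene from Mlxipl to Srebf1 overlapped the next.

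**Figure D2:**
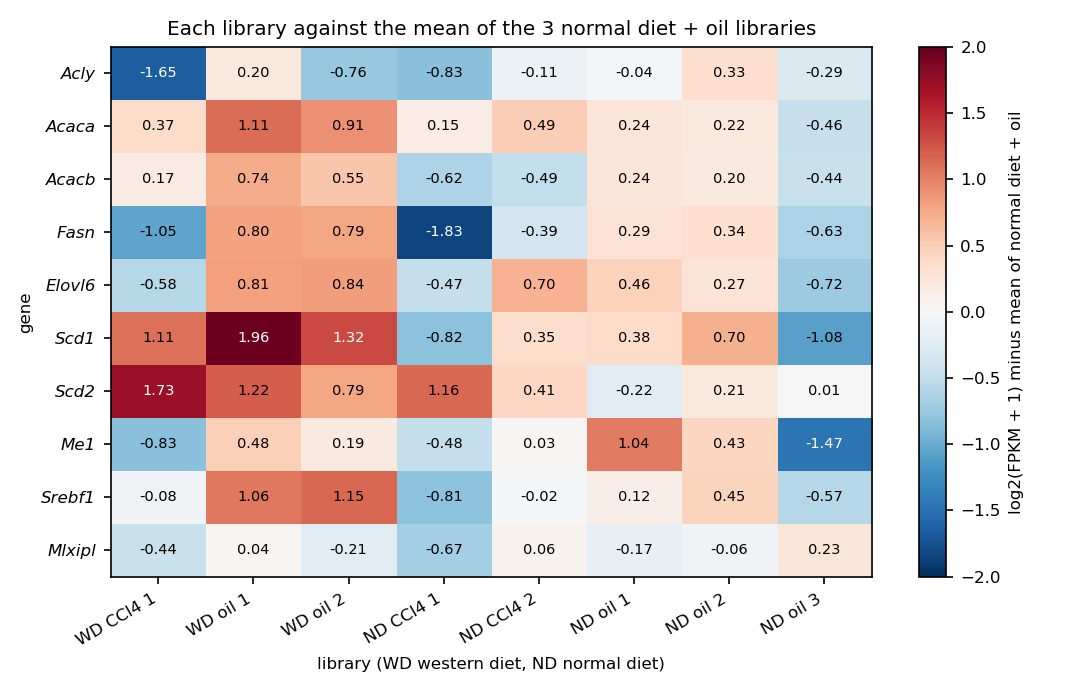
Difference of each library (columns) from the mean of the 3 normal diet + oil libraries, on log2(FPKM + 1), for the 10 members (rows); red is above that mean and blue below. All 10 members are above it in western diet + oil library 1, 8 are below it in normal diet + CCl4 library 1 and in normal diet + oil library 3.

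The first comparison asked which of these genes differed with the western diet in mice that got oil. Mean levels of Srebf1 were 75.9 ± 3.47 FPKM with western diet + oil (SD, n = 2) and 36.3 ± 12.5 FPKM in normal diet + oil libraries (SD, n = 3), and those of Fasn 87.8 ± 0.657 and 52.4 ± 17.6 FPKM. Scd1 averaged 2865 ± 880 FPKM in western diet + oil libraries and 1018 ± 535 FPKM in those of normal diet + oil. Both libraries of western diet + oil were above the 3 of normal diet + oil for 7 members, which 40.7% of all tested genes also showed, and below them for 0, against 5.18% of all tested genes. By limma on log2(FPKM + 1), with Benjamini-Hochberg adjustment over all tested genes and a threshold of 0.05, 0 of the 10 passed, against 4.41% of all tested genes, and 5 were above 0 at an unadjusted p below 0.05 (20.9% of all tested genes). The median of the members was 0.81 on the log2 scale, beside 0.22 for all genes.

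Nearest to the threshold were Acaca, whose log2 fold change was 1.01 with an SE of 0.24 (limma adjusted p = 0.0594), and Scd2, at 1.01 ± 0.26 (± SE here and below; limma adjusted p = 0.0719). Srebf1 had 1.10 ± 0.34 (limma adjusted p = 0.104), Scd1 1.64 ± 0.56 (limma adjusted p = 0.136) and Acacb 0.65 ± 0.23 (limma adjusted p = 0.144). Those 5 genes cover both carboxylases, both desaturases and the SREBP-1 gene. Elovl6 was at 0.83 ± 0.42 and Fasn at 0.80 ± 0.44, with limma adjusted p-values of 0.285 and 0.324. Me1, Mlxipl and Acly, at 0.34 ± 0.63, -0.09 ± 0.25 and -0.28 ± 0.34, had overlapping libraries. Acaca passed when FPKM were rescaled to a common sum (1.10, limma adjusted p = 0.0395), where 812 of 11586 tested genes passed. Scd2 passed when only these 2 groups were fitted (1.01, limma adjusted p = 0.0289), where 1143 of 11514 did. With all libraries in 1 fit, 508 of 11514 passed. Leaving out a normal diet + CCl4 library cannot move the Scd2 estimate, as that group is outside this comparison. Mlxipl moved to the other side of 0 with a common sum (0.016). The limits are the small groups and the scale: adding 1 to FPKM understates the change of low genes such as Scd2.

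Markers of other cells moved in the same libraries. Of 11 Kupffer cell and macrophage markers 7 rose with western diet + oil, and their sum was 410 and 830 FPKM, against 45.8, 115 and 105 FPKM with normal diet + oil. Of 6 endothelial markers 3 rose, of 4 neutrophil markers 2 rose and of 5 erythroid genes 3 rose. Of 8 stellate cell and myofibroblast markers 1 rose (Dcn), and all 8 were above 0. Of 3 tested cholangiocyte markers 0 rose. Among all tested genes 3.81% rose. Of 6 adipocyte markers Cfd rose, while Adipoq, Plin1, Lep and Retn were listed at 0 in every library. Hepatocyte markers had 0 of 8 past the threshold and a median of -0.13. The part of these cells in the values of the members was not tested.

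CCl4 on the normal diet gave another pattern. Fasn averaged 25.7 ± 17.5 FPKM with normal diet + CCl4 (SD, n = 2) and 52.4 ± 17.6 FPKM with normal diet + oil (SD, n = 3), and Acacb averaged 5.84 ± 0.449 and 9.28 ± 2.50 FPKM in these groups. Scd2 averaged 1.95 ± 1.06 FPKM with normal diet + CCl4 and 0.671 ± 0.245 with normal diet + oil. By limma 0 of 10 members passed, against 1.42% of all tested genes. At an unadjusted p below 0.05, 1 was above 0 (Scd2, 0.78 ± 0.26; limma adjusted p = 0.160) and 2 were below 0 (Fasn, -1.11 ± 0.44, limma adjusted p = 0.195, and Acacb, -0.56 ± 0.23, limma adjusted p = 0.206). Among all tested genes 20.6% were above 0 and 2.18% below 0 at that p. The libraries did not overlap for Scd2, higher with CCl4 as in 41.8% of tested genes, and for Acacb, lower as in 3.8%. The median of the members was -0.27, beside 0.26 for all genes.

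The pair of normal diet + CCl4 libraries differed for most members. Library 1 was lower than library 2 in 9 members and higher in Scd2. With either left out, 1 library remained in the group. Without library 2, Fasn was at -1.84 and Scd2 at 1.16. Without library 1, Scd1, Me1 and Mlxipl moved above 0, at 0.35, 0.027 and 0.064. Elovl6 was at 0.11 ± 0.42 and moved below 0 with median-of-ratios scaling (-0.18) and without the Mup family (-0.020). Library 1 was also the one with higher sums for markers of other cells, 381 FPKM for macrophage markers, 156 for stellate cell markers and 459 for cholangiocyte markers, against 114, 48.8 and 28.6 FPKM in library 2. The cholangiocyte sum was nearly all Spp1, at 455 and 26.8 FPKM. Krt7, Krt19, Epcam and Sox9 were 0.286, 0.832, 1.32 and 1.12 FPKM in library 1 and 0, 0.522, 0.583 and 0.678 in library 2. The part of other cells in the difference between these libraries was not tested.

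With both treatments the single library combined high desaturase with low Acly and Fasn. Scd2 was at 1.73 ± 0.33 against normal diet + oil (limma adjusted p = 0.0682) and Scd1 at 1.11 ± 0.71 (limma adjusted p = 0.502). Acly was at -1.65 ± 0.44 (limma adjusted p = 0.138) and Fasn at -1.05 ± 0.56 (limma adjusted p = 0.423). By limma 0 of 10 passed, against 0.929% of all tested genes, with 1 member above 0 (Scd2) and 1 below 0 (Acly) at an unadjusted p below 0.05, against 12.6% and 2.67% of all tested genes. The combined library was above the 3 normal diet + oil libraries in 3 members and below them in 3, which 51.5% and 13.4% of tested genes showed. The Scd2 estimate does not draw on the normal diet + CCl4 libraries, so leaving 1 of them out cannot move it. Fasn was at -1.36 without the pair that stood apart (library 3 of normal diet + oil, library 1 of normal diet + CCl4), called the doubted pair below. That pair stood apart by low values in these same members, so its removal gives no independent support. The standard errors of this comparison assume that the single library varies like the others.

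**Figure D3:**
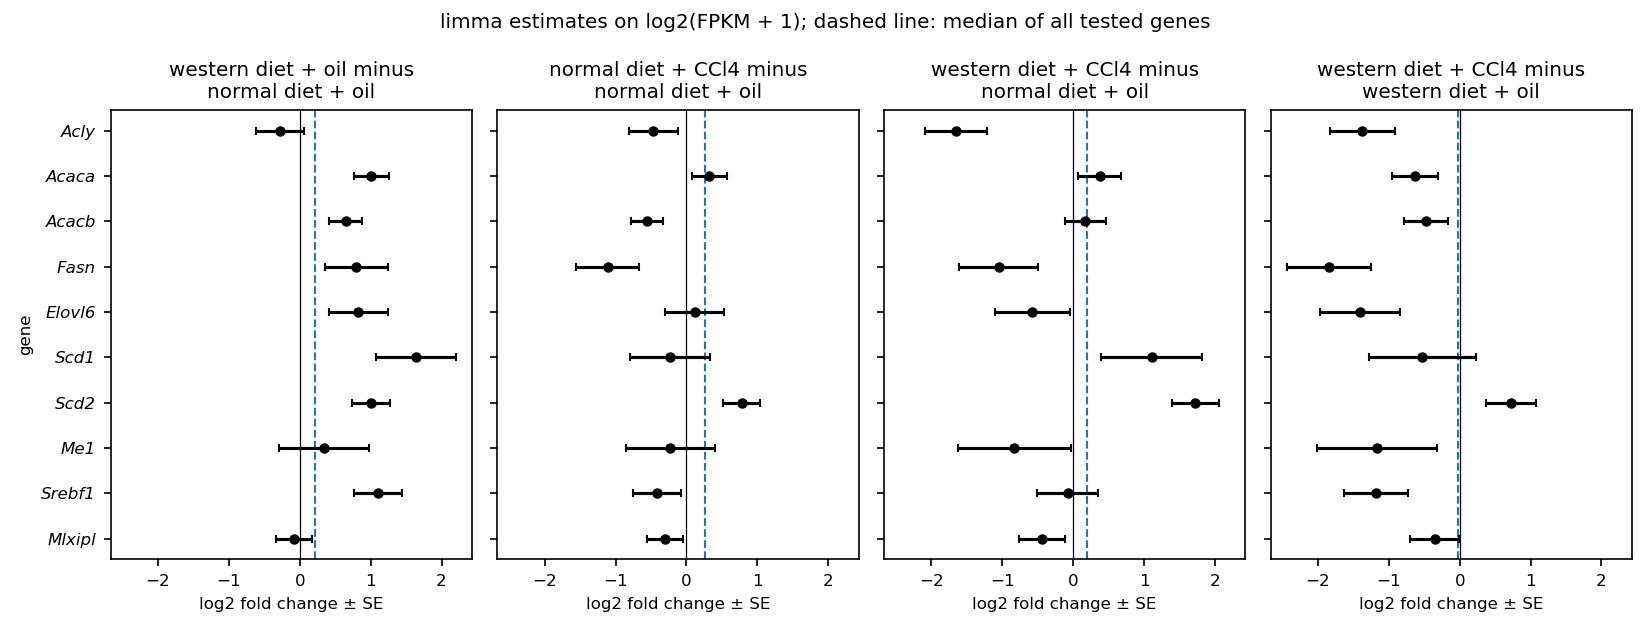
Log2 fold changes ± SE from limma on log2(FPKM + 1) for the 10 members (rows) in 4 comparisons (panels); the solid line is 0 and the dashed line is the median of all 11514 tested genes. With western diet + oil minus normal diet + oil 8 members are above 0, as are 76.7% of all tested genes, and with western diet + CCl4 minus western diet + oil 9 are below 0, as are 55.2% of them, although 0 passed in any panel.

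Within western diet mice the CCl4 library lay below both oil libraries in 9 of the 10 members, Scd2 being above them. Non-overlap of this kind was found in 36.8% of tested genes (lower) and 26.4% (higher). Fasn was at -1.84 ± 0.59 (limma adjusted p = 0.876), Elovl6 at -1.40 ± 0.56, Acly at -1.38 ± 0.46 (limma adjusted p = 0.929), Srebf1 at -1.18 ± 0.45, and Scd2 at 0.72 ± 0.35. By limma 0 of 10 passed, against 0.0434% of all tested genes, and 4 were below 0 at an unadjusted p below 0.05 (Fasn, Acly, Srebf1 and Elovl6), against 2.26% of all tested genes. The median of the members was -0.90, beside -0.03 for all genes. With each of the 3 scalings the same 9 members stayed below 0. Neutrophil markers summed to 417 FPKM in the CCl4 library, against 21.6 and 39.6 FPKM in western diet + oil, and macrophage markers to 324 FPKM against 410 and 830 FPKM. Most of the neutrophil sum was S100a8 and S100a9, at 135 and 267 FPKM in the CCl4 library. Retnlg was higher there too, at 13.4 FPKM against 0.597 and 1.04. Csf3r, of the same list, was lower, at 1.74 FPKM against 1.88 and 2.09. The part of these cells in the members' values was not tested.

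Set against normal diet + CCl4, the western diet + CCl4 library had Acacb at 0.73 ± 0.31 (limma adjusted p = 0.684), Scd2 at 0.95 ± 0.35 (limma adjusted p = 0.595) and Acly at -1.18 ± 0.46 (limma adjusted p = 0.623). These were the members at an unadjusted p below 0.05, 2 above 0 and 1 below, against 3.2% and 3.91% of all tested genes. The library was above both normal diet + CCl4 libraries in 3 members (Acacb, Scd1 and Scd2) and below both in 3 (Acly, Elovl6 and Me1), as 23.2% and 39.3% of tested genes were. By limma 0 of 10 passed, against 0.261% of all tested genes. The remaining 7 were between -0.69 and 1.34, their signs mixed, with a median over all 10 of 0.06.

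Western diet and CCl4 were also compared directly, which leaves the 3 control libraries they share out of the contrast. All 10 members were above 0 for western diet + oil minus normal diet + CCl4, as were 44.8% of all tested genes, and in 7 the libraries did not overlap, which 17.1% of tested genes showed in that direction. Fasn was at 1.91 ± 0.48 (limma adjusted p = 0.163), Srebf1 at 1.52 ± 0.37 (limma adjusted p = 0.147) and Acacb at 1.20 ± 0.25 (limma adjusted p = 0.0939). By limma 0 of 10 passed, against 0.617% of all tested genes, and 5 were above 0 at an unadjusted p below 0.05, against 5.36%. Acacb passed without normal diet + oil library 3 (1.20, limma adjusted p = 0.0281), where 122 of 11514 tested genes passed, against 71 with all libraries. That library is outside this contrast, so only the SE and p could change. The sign of 3 members rested on single libraries. Acly was below 0 without western diet + oil library 1 (-0.29) or normal diet + CCl4 library 1 (-0.17), Mlxipl without normal diet + CCl4 library 1 (-0.15), and Scd2 without normal diet + CCl4 library 2 (-0.15).

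The interaction asks whether the diet difference under CCl4 departs from that under oil. By limma 0 of 10 members passed, against 0.0608% of all tested genes. Elovl6 was at -1.52 ± 0.70 (limma adjusted p = 0.521) and Acaca at -0.96 ± 0.41 (limma adjusted p = 0.510), and 9 of the 10 were below 0, as were 81.1% of all tested genes, with a median of -0.75 beside -0.29 for all genes. Acaca alone had an unadjusted limma p below 0.05 (0.0465), against 8.35% of all tested genes below 0 at that p. In the additive model, which pools 3 western diet libraries against 5 normal diet libraries, Scd2 was at 0.98 ± 0.20 for diet (limma adjusted p = 0.0528), Acacb at 0.68 ± 0.18 (limma adjusted p = 0.0983) and Scd1 at 1.53 ± 0.43 (limma adjusted p = 0.115). Again 0 of 10 passed for diet, against 1.43% of all tested genes, and 5 were above 0 at an unadjusted p below 0.05 (those 3, Acaca and Srebf1), against 14.6%. Without normal diet + CCl4 library 1, Scd2 was at 1.10 for diet. For CCl4 in the same model, Fasn was at -1.37 ± 0.36 (limma adjusted p = 0.199), Scd2 at 0.76 ± 0.20 (limma adjusted p = 0.212) and Acacb at -0.53 ± 0.18 (limma adjusted p = 0.288), with 0 of 10 past the threshold, against 0.0695% of all tested genes. At an unadjusted p below 0.05, 1 member was above 0 (Scd2) and 4 were below (Acly, Acacb, Fasn and Srebf1), against 10.9% and 2.31% of all tested genes. Scd2 was thus the member with positive estimates for both treatments. Fasn was above 0 for diet and below 0 for CCl4, as were Acacb and Srebf1. Acaca, Elovl6, Scd1 and Me1 had the same signs, but each had an estimate smaller than its SE. These were Me1 at 0.002 ± 0.50 and Elovl6 at 0.28 ± 0.40 for diet. For CCl4 they were Acaca at -0.02 ± 0.24 and Scd1 at -0.34 ± 0.43.

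Ratios inside a library do not depend on scaling between libraries, and they are given as a description, since 3 against 2 libraries allow 10 arrangements and no exact permutation test below 0.05. Acacb over Acaca was 1.35 in western diet + CCl4, 1.18 and 1.20 in western diet + oil, 0.864 and 0.736 in normal diet + CCl4, and 1.59, 1.57 and 1.66 in normal diet + oil. The 4 groups did not overlap for this ratio, and normal diet + oil library 3, low in both genes, sat beside its group mates. Acacb and Acaca coding sequences shared 71.4% of aligned bases with a longest identical run of 29 bases. Fasn over Acaca was 3.12 in western diet + CCl4, 6.60 and 7.62 in western diet + oil, 2.09 and 4.56 in normal diet + CCl4, and 9.0, 9.44 and 8.36 in normal diet + oil. Normal diet + oil was the highest group for that ratio too, and both CCl4 groups were below both oil groups.

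Srebf1 over Mlxipl was 0.700 in western diet + CCl4, 1.12 and 1.42 in western diet + oil, 0.486 and 0.512 in normal diet + CCl4, and 0.666, 0.782 and 0.305 in normal diet + oil. Western diet + oil was the group in which Srebf1 exceeded Mlxipl. Elovl6 over Scd1 was 0.00376 in western diet + CCl4, 0.00594 and 0.00939 in western diet + oil, 0.0155 and 0.0167 in normal diet + CCl4, and 0.0137, 0.00947 and 0.0153 in normal diet + oil. Every western diet library was below every normal diet library, by a narrow margin between 0.00939 and 0.00947. Scd1 over Scd2 was 431 in western diet + CCl4, 1221 and 1195 in western diet + oil, 189 and 954 in normal diet + CCl4, and 2750, 1601 and 628 in normal diet + oil. Western diet + oil was above every CCl4 library for this ratio and lay within the wide range of normal diet + oil. The ratio was thus not constant over the libraries.

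**Figure D4:**
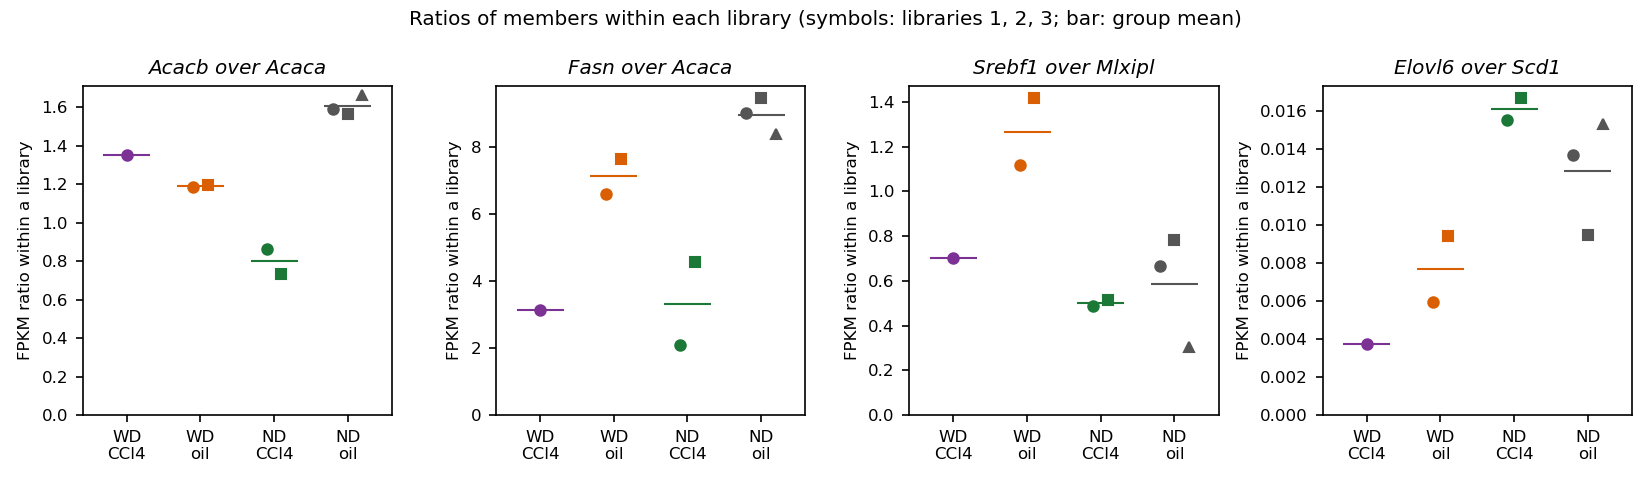
Ratios of FPKM within each library (linear axes from 0) for 4 pairs of members in the 4 groups; symbols are libraries and bars are group means. Acacb over Acaca separates all 4 groups, from 0.736 in normal diet + CCl4 to 1.66 in normal diet + oil, and Fasn over Acaca is highest in the 3 normal diet + oil libraries.

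Likeness of profiles was measured as the root-mean-square difference of log2(FPKM + 1) over the 8 libraries, each profile centred on its own mean. Acacb and Srebf1 were nearest to each other at 0.31, Fasn was nearest to Srebf1 at 0.40, and Scd2 was farthest from Fasn at 1.23. Outside the set, Rdh16 (0.24) and Hcar2 (0.29) were among the nearest to Srebf1. Rdh16, a retinol dehydrogenase, was 12.5 FPKM in western diet + CCl4, 28.9 and 22.7 in western diet + oil, 5.98 and 17.5 in normal diet + CCl4, and 16.9, 17.8 and 7.24 in normal diet + oil. Fasn was nearest to Lhpp (0.22), the water channel Aqp8 (0.37) and glutamine synthetase, Glul (0.40). Scd2 was nearest to Plscr1 (0.16), Entpd2 (0.17) and Fam129b (0.17). These are descriptions over 8 libraries that share 4 treatments and carry no test.

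Other genes of the route were read from 6 lists of 82 genes in all. Among 16 targets of SREBP-1 and LXR, 5 rose with western diet + oil against normal diet + oil, as 3.81% of all tested genes did, 0 fell and 11 did not pass, with a median of 0.98. Fads2, the delta-6 desaturase of polyunsaturated fatty acids, was 329 and 363 FPKM with western diet + oil, against 113, 115 and 75.7 FPKM with normal diet + oil (1.79 ± 0.24, limma adjusted p = 0.0152). Pnpla3, a lipid droplet hydrolase, was 8.68 and 4.88 FPKM against 0.859, 1.95 and 0.343 FPKM (1.95 ± 0.36, limma adjusted p = 0.0298). Pnpla5 (1.35 ± 0.29, limma adjusted p = 0.0452), the cholesterol exporter Abcg1 (1.40 ± 0.31, limma adjusted p = 0.0493) and Smpdl3a, a phosphodiesterase whose control by LXR is known from human cells (0.99 ± 0.17, limma adjusted p = 0.0272) rose as well. Abcg1 is known from macrophages too, whose markers rose in the same libraries, and the part of those cells was not tested. These calls did not hold without either western diet + oil library, which left 1 library in that group. The count of 5 was 1 without any 1 normal diet + oil library, where 74, 51 and 118 of 11514 tested genes passed. With median-of-ratios scaling it was 1 too, where 283 of 11407 passed, against 508 of 11514 in the fit reported here. Without the doubted pair Acss2, named after its values were seen, was at -1.50.

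Of 11 tested genes of elongation and desaturation, 2 rose with western diet + oil (Fads2, and Fads3 at 1.14 ± 0.19, limma adjusted p = 0.0246) and 9 did not pass. The call of Fads3 held in 8 of 16 alternative fits and was lost in 8, among them those without any 1 library of western diet + oil or of normal diet + oil (limma adjusted p between 0.0539 and 0.17). With normal diet + CCl4, 1 fell, as 0.4% of all tested genes did: Elovl3, an elongase that is higher in male liver, was 5.13 and 9.43 FPKM with normal diet + CCl4, against 109, 63.9 and 265 FPKM with normal diet + oil (-3.95 ± 0.59, limma adjusted p = 0.0259). Elovl3 was also below every normal diet + oil library in western diet + oil, at 48.7 and 21.2 FPKM (-1.89 ± 0.59, limma adjusted p = 0.108). In western diet + CCl4 it was 9.18 FPKM. Its call with normal diet + CCl4 held in 10 of 17 alternative fits. It was lost without the doubted pair (-3.02, limma adjusted p = 0.144), without library 1 of normal diet + CCl4 (limma adjusted p = 0.199) or of normal diet + oil (limma adjusted p = 0.0632), without either western diet + oil library (limma adjusted p = 0.0643 and 0.0638), with no filter and with the compared groups alone. Of 14 targets of ChREBP, 1 rose with western diet + oil, Pnpla3, which both target lists hold, and 13 did not pass. Substrate and NADPH supply had 0 of 12 past the threshold, SREBP control 0 of 10, and receptors, coactivators and kinases 0 of 18, at medians of 0.15, 0.19 and 0.16, near the 0.22 of all genes. At an unadjusted p below 0.05, supply held 2 genes above 0 and 1 below, SREBP control 0 above and 1 below, and the regulators 3 above and 0 below, against 20.9% above and 2.41% below among all tested genes. Acss2, which makes cytosolic acetyl-CoA from acetate, was on the other side of 0 from most SREBP-1 targets, at -1.26 ± 0.37 (limma adjusted p = 0.093).

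In the remaining comparisons few listed genes passed. Pnpla3 rose in western diet + oil relative to normal diet + CCl4 (2.68 ± 0.39, limma adjusted p = 0.0317), as 0.408% of tested genes did. That call held in 7 of 16 alternative fits and was lost in 9, among them those without either western diet + oil library (limma adjusted p = 0.271 and 0.165) or either normal diet + CCl4 library (limma adjusted p = 0.0854 and 0.0649). Fads2 rose with western diet in the additive model (1.43 ± 0.25, limma adjusted p = 0.0324), as 1.17% of tested genes did. It held in 11 of 16 alternative fits and was lost with the replicate block and without either western diet + oil library (limma adjusted p = 0.157 and 0.137) or library 1 or 2 of normal diet + oil (limma adjusted p = 0.088 and 0.0744). For western diet + CCl4 against western diet + oil 0 of the 16 SREBP-1 and LXR targets passed, against 0.0434% of all tested genes, and all 16 were below 0, as were 55.2% of all. Their median was -0.56, beside -0.03 for all genes, and 6 were below 0 at an unadjusted p below 0.05, against 2.26% of all. Insig1, which holds SREBP in the endoplasmic reticulum, was 35.1 FPKM in western diet + CCl4, 74.3 and 61.7 in western diet + oil, 31.5 and 66.5 in normal diet + CCl4, and 95, 82.2 and 96.2 in normal diet + oil. Normal diet + oil was clear of all other groups for Insig1. Its log2 fold changes against normal diet + oil were -1.35 ± 0.38 for western diet + CCl4, -0.42 ± 0.30 for western diet + oil and -0.97 ± 0.30 for normal diet + CCl4, with limma adjusted p-values of 0.153, 0.438 and 0.138. Nr1h3, the gene of LXR alpha, was between 33.2 and 60.7 FPKM over the 8 libraries and did not pass in any comparison.

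**Figure D5:**
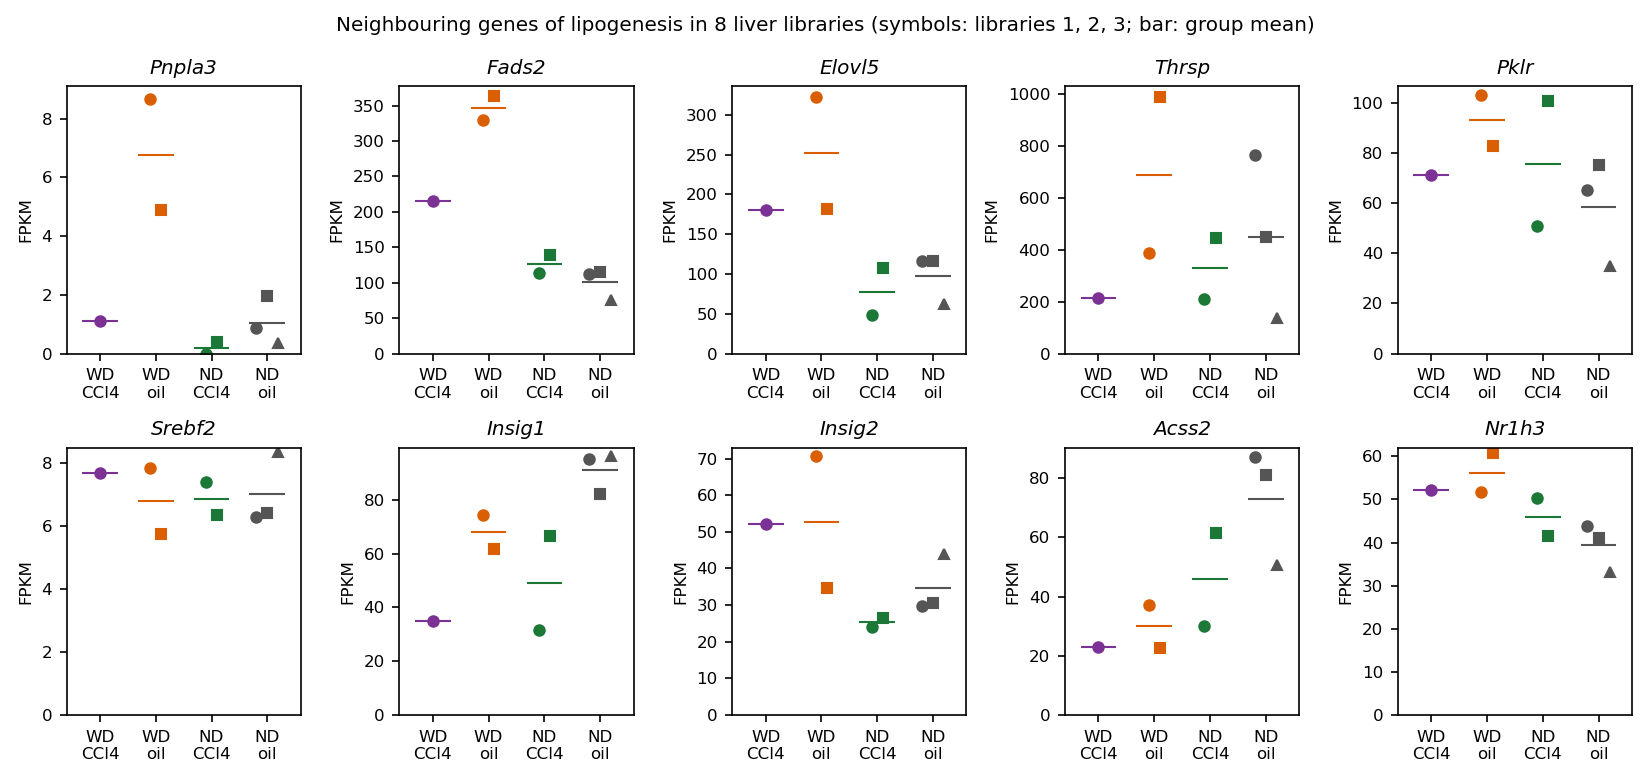
FPKM of 10 neighbouring genes of the route (1 panel each, linear axis from 0) in the 4 groups; symbols are single libraries and bars are group means. Fads2 is highest in western diet + oil, at 329 and 363 FPKM, while Insig1 is highest in the 3 normal diet + oil libraries.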

How the data were processed

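The values are FPKM per gene and library, deposited by the authors in 1 table. Per the submitters' processing notes the build was GRCm38 and the tools were HISAT2 2.2.1, StringTie 2.1.0, cutadapt 3.7 and FastQC 0.11.9. The sources used here do not state their settings or how fragments shared by gene copies were assigned. A stranded mRNA kit was used, per the labels' protocols.

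Tests ran on log2(FPKM + 1) of the 11514 genes that reached 1 FPKM in 2 or more of the 8 libraries, all 10 members among them. A mean per group was fitted to all libraries together with limma (R 4.3.3, limma 3.58.1, trended eBayes), with 4 residual and 3.93 prior degrees of freedom. There were 9 comparisons: 6 pairs of groups, the interaction, and diet and CCl4 in an additive model. Tests were two-sided, with Benjamini-Hochberg adjustment within a comparison over all tested genes. The script was tested on simulated data. Coordinates and transcripts came from GENCODE M21 on GRCm38, promoters from RefSeq (GRCm38.p6), and coding sequences were aligned with Biopython 1.88.

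The members and the 6 gene lists were chosen with earlier results of these data known, so they are not independent of them. Named were all members, the up to 4 listed genes with the smallest p among those past the threshold in each list and comparison, 15 fixed neighbours of the route and the 3 nearest profiles each for Fasn, Srebf1 and Scd2, except 1 gene that is not reported here. As alternatives, the filter was dropped or set to a mean of 5 FPKM, the pseudocount was 0.1, and the remaining ones were a common sum, median-of-ratios scaling, removal of the Mup family, the replicate number as a block, the compared groups alone, and each library left out. Leaving out library 3 of normal diet + oil together with library 1 of normal diet + CCl4 was added after seeing the data, the members' values among them.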

Additional observations from a re-analysis of the deposited data

Results flagged for a closer look

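Elovl6, which lengthens palmitate, was on opposite sides with the diet under the 2 injections. It was 20.7 and 21.1 FPKM with western diet + oil, above the 16.0, 13.8 and 6.47 FPKM of normal diet + oil, and 7.28 FPKM in the western diet + CCl4 library, below the 7.89 and 19.1 FPKM of normal diet + CCl4. The difference between these effects was -1.52 ± 0.70 on the log2 scale (limma interaction, adjusted p = 0.521), so it did not pass, and its CCl4 arm rests on 1 library that lay close to normal diet + CCl4 library 1.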

How the results depend on the processing

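Member log2 fold changes were recomputed 1451 times: 1360 stayed on the same side of 0 and of the threshold, 13 passed where none had, and 78 changed side of 0, none of these past the threshold and the largest at 0.66 in size. In comparisons of 2 groups, leaving out a library of another group cannot move the estimate, only its SE and p. As 0 members had passed at first, the same side of the threshold meant still not passed. The tally of 1360 is thus no measure of stability. The doubted pair, library 3 of normal diet + oil and library 1 of normal diet + CCl4, stood apart by low values in these same members. Without it 1 normal diet + CCl4 library remained. Acaca was then at 0.78 for western diet + oil minus normal diet + oil. Fasn was at -1.36 for western diet + CCl4 minus normal diet + oil, and Scd2 at 1.11 for diet in the additive model. No p-value or count of members is given for the fit without that pair. In the main fit, with all 8 libraries, the count of members past the threshold was 0 in each comparison. It became 1 for western diet + oil minus normal diet + oil with a common sum (Acaca) and with the 2 compared groups alone (Scd2). In these fits 812 of 11586 and 1143 of 11514 tested genes passed, against 508 of 11514. With 1 library left out in turn the count ranged from 0 to 1 for western diet + oil and for western diet + CCl4, each minus normal diet + oil, for western diet + oil minus normal diet + CCl4 and for diet, and from 0 to 2 for normal diet + CCl4 minus normal diet + oil. Other comparisons kept 0. The number of all tested genes past the threshold changed from fit to fit as well. Scd2 was not tested under a mean FPKM of at least 5. The count of 5 SREBP-1 and LXR targets with western diet + oil became 2 with a pseudocount of 0.1, with a mean FPKM of at least 5 and without the Mup family. Tested genes past the threshold in these fits were 345 of 11514, 190 of 5524 and 306 of 11864, against 508 of 11514. The target count was 1 with no filter (121 of 16535 tested genes) and with median-of-ratios scaling (283 of 11407). It was 8 with a common sum (812 of 11586) and with the compared groups alone (1143 of 11514). It changed with 1 library left out too. The causes were not tested.

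Between libraries of equal replicate number, correlations of deviations from the group mean lay between -0.279 and -0.014, with western diet + CCl4 left out. In groups of 2 libraries these deviations mirror each other, so the correlations cannot decide whether equal numbers mark a shared batch. With the replicate number as a block 0 members passed in every comparison. The SREBP-1 and LXR count with western diet + oil was 0, where 32 of 11514 tested genes passed.

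Estimates that changed side of 0 had not passed the threshold. With a common sum they were Mlxipl 0.016 (western diet + oil minus normal diet + oil), Srebf1 0.036 (western diet + CCl4 minus normal diet + oil), Acaca -0.018 and Fasn -0.0097 (western diet + CCl4 minus normal diet + CCl4), Acacb -0.077 (interaction) and Acaca 0.092 (CCl4, additive). With the block they were Me1 -0.39 and Mlxipl 0.031 (western diet + oil minus normal diet + oil), Elovl6 -0.25 (normal diet + CCl4 minus normal diet + oil), Acacb -0.067 (western diet + CCl4 minus normal diet + oil), Scd1 0.39 (interaction), and Me1 -0.50 and Mlxipl 0.0066 (diet, additive). With median-of-ratios scaling they were Elovl6 -0.18 (normal diet + CCl4 minus normal diet + oil), Acacb -0.038 (western diet + CCl4 minus normal diet + oil), Scd1 0.076, Scd2 0.14 and Mlxipl 0.32 (interaction) and Me1 -0.13 (diet, additive). Without the Mup family they were Elovl6 -0.020 (normal diet + CCl4 minus normal diet + oil), Mlxipl 0.090 (interaction) and Me1 -0.092 (diet, additive).

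With 1 library or the doubted pair left out, western diet + oil minus normal diet + oil ranged from -0.76 to 0.20 for Acly, -0.21 to 0.035 for Mlxipl and -0.39 to 0.86 for Me1. Normal diet + CCl4 minus normal diet + oil ranged from -0.82 to 0.35 for Scd1, -0.96 to 0.29 for Me1, -0.67 to 0.18 for Mlxipl and -0.47 to 0.70 for Elovl6. Western diet + CCl4 minus normal diet + oil ranged from -0.36 to 0.15 for Srebf1 and -0.051 to 0.29 for Acacb. Western diet + CCl4 minus normal diet + CCl4 ranged from -0.12 to 0.22 for Acaca, -0.66 to 0.79 for Fasn, -0.060 to 0.74 for Srebf1 and -0.50 to 0.23 for Mlxipl. Western diet + oil minus normal diet + CCl4 ranged from -0.29 to 0.67 for Acly, -0.15 to 0.59 for Mlxipl and -0.15 to 0.60 for Scd2. The interaction ranged from -0.88 to 0.29 for Scd1, -0.43 to 0.31 for Scd2, -0.53 to 0.32 for Mlxipl and -0.040 to 0.30 for Acacb. Diet in the additive model ranged from -0.55 to 0.34 for Me1, -0.12 to 0.83 for Elovl6 and -0.21 to 0.0081 for Mlxipl, and CCl4 from -0.22 to 0.32 for Acaca and -0.91 to 0.11 for Elovl6. Where only 1 library of a group was left, its variance was taken to be that of the other groups.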
